A study of Mus musculus with 6 samples.

Results

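Mast cells are represented here by 9 genes of 24063 in the deposited tables, namely the granule proteases Cpa3, Cma1, Mcpt4, Tpsb2 and Tpsab1, the surface receptors Ms4a2, Fcer1a and Kit, and the histamine-forming enzyme Hdc. They were chosen by name as mast cell genes, and for each the transcript row with most counts on average was used. RNA sequencing compared penile tumors of 3 SA mice (PB-Cre+ Smad4L/L ApcL/L) with penile epithelium of 3 wild type (WT) C57BL/6 mice, all 5 month old. The Cre of the SA mice is driven by the androgen-responsive probasin promoter in epithelial cells, and the tumors arose without carcinogen. The WT mice are given as C57BL/6 and the SA mice only by their alleles, so that strain and genotype cannot be told apart. The comparison asks how the RNA of these genes differs between cancerous and normal penis.

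Mast cells are tissue-resident cells that develop under the growth factor Kitl, sensed by the receptor tyrosine kinase Kit, and that bind IgE through the high-affinity Fc receptor. They store histamine and proteases in granules and release them when IgE is crosslinked by antigen. In mice, connective tissue mast cells are known for the chymases Mcpt4 and Cma1, the tryptases and the carboxypeptidase Cpa3, whereas mucosal mast cells are known for the chymases Mcpt1 and Mcpt2.

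Gene-level counts came to between 23828283 and 110509147 per library, and SA tumor 3 held 4.42 times the median of the other libraries. The whole-gene RNA of Smad4 was lower in SA tumors than in WT penis, at 39.6 ± 5.61 against 67.8 ± 5.92 CPM (counts per 1000000 counts, with library sizes normalized by TMM, SD, n = 3 each, edgeR quasi-likelihood adjusted p = 0.00114), and that of Apc was higher, at 215 ± 33.4 against 79.6 ± 15.1 CPM (edgeR adjusted p = 0.000185). Such counts include reads outside the deleted exons and RNA of cells without Cre, so they do not check the deletion. The summed smooth muscle markers reached 1476 to 1966 CPM in WT penis and 34.9 to 120 CPM in SA tumors, beside 19265 to 23249 and 10865 to 12892 CPM for squamous epithelial markers, so the libraries labelled as epithelium also held RNA of other cells.

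In the RefSeq annotation of GRCm38.p6, the chymases lie at chr14:55941451-55944675 (Cma1) and chr14:56059744-56062310 (Mcpt4), the tryptases at chr17:25366308-25368096 (Tpsb2) and chr17:25343245-25345562 (Tpsab1), and Cpa3 at chr3:20215616-20242209. The receptor genes lie at chr19:11615517-11623790 (Ms4a2), chr1:173221269-173227232 (Fcer1a) and chr5:75574987-75656722 (Kit), and Hdc at chr2:126593659-126624025.

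All 9 mast cell genes passed the filter on low counts. At an adjusted p under 0.05 in edgeR's quasi-likelihood test, 6 rose in SA tumors, 0 fell and 3 did not pass, where 28.2% of the 16336 genes tested rose. At an adjusted p under 0.01 with at least a log2 fold change of 2, 2 of them (Hdc and Tpsab1) rose, against 9.41% of all genes, and 0 fell, against 3.59%. The median log2 fold change of the 9 genes was 1.76, beside 0.03 over all genes tested. In bulk RNA, a change in the number of mast cells and a change in RNA per cell cannot be told apart.

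The carboxypeptidase Cpa3 and the chymases Cma1 and Mcpt4 overlapped between the groups. Cpa3, which encodes the granule carboxypeptidase A3, measured 4.20, 11.9 and 16.1 CPM in SA tumors 1 to 3 and 7.87, 4.84 and 4.74 CPM in WT penises 1 to 3. SA tumors 2 and 3 lay above every WT penis and SA tumor 1 below every one. The log2 fold change of Cpa3 was 0.90 with a standard error of 0.46 (edgeR adjusted p = 0.140). Cma1, a chymase, measured 6.09, 15.8 and 15.9 CPM in the SA tumors and 9.09, 5.74 and 7.02 CPM in the WT penises. SA tumor 1 fell within the WT range, and the other SA tumors lay above it. Its log2 fold change was 0.80 ± 0.36 (standard error, edgeR adjusted p = 0.0966). Mcpt4, the chymase encoded at the same locus, measured 5.50, 16.5 and 18.3 CPM in the SA tumors and 14.9, 9.65 and 9.43 CPM in the WT penises. Here too SA tumor 1 was the lowest of all 6 libraries and the other SA tumors were the highest. Its log2 fold change was 0.26 ± 0.43 (standard error, edgeR adjusted p = 0.644).

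The tryptases Tpsb2 and Tpsab1, which are trypsin-like proteases of the granule, rose in SA tumors by unequal amounts. Tpsb2 measured 6.32, 20.6 and 22.5 CPM in the SA tumors and 8.50, 5.61 and 5.33 CPM in the WT penises. SA tumor 1 lay inside the WT range, and the other SA tumors were above it. Tpsb2 rose, with a log2 fold change of 1.36 ± 0.46 (standard error, edgeR adjusted p = 0.0424), a call that was lost when any one library other than SA tumor 1 was left out (adjusted p between 0.0688 and 0.154). Tpsab1 measured 0.818, 4.07 and 4.47 CPM in the SA tumors and 0.316, 0.401 and 0.273 CPM in the WT penises. All 3 SA tumors were above all 3 WT penises, with SA tumor 1 nearest to them. The log2 fold change of Tpsab1 was 3.23 ± 0.65 (standard error, edgeR adjusted p = 0.00329), and over the groups 695 counts stood against 25. Without SA tumor 2 its adjusted p was 0.0136, and without 1 WT penis it lay between 0.0154 and 0.0208. Of the 7 genes of the tryptase locus on chromosome 17, 4 passed the filter on low counts. Of these, Tpsb2, Tpsab1 and the basophil protease Prss34 rose at an adjusted p under 0.05, where 28.2% of all genes tested rose. Prss34 had 4, 0 and 2 counts in WT penises 1 to 3. Tpsg1, a membrane-anchored tryptase, did not pass (-0.03 ± 0.63 on the log2 scale, standard error, edgeR adjusted p = 0.971, turning positive under upper quartile scaling). RefSeq lists Tpsab1 as a transcribed pseudogene in the GRCm38.p6 assembly, which is of C57BL/6J, a strain known to lack the protein. Whether strain had a part in its difference was not tested.

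The receptors rose together, and no SA tumor overlapped with a WT penis. Kit, the receptor for stem cell factor, measured 8.21, 13.5 and 17.9 CPM in the SA tumors and 4.57, 3.30 and 3.96 CPM in the WT penises. Every SA tumor exceeded every WT penis. The log2 fold change of Kit was 1.76 ± 0.29 (standard error, edgeR adjusted p = 0.00118). Melanocytes also use Kit, and their summed markers spanned 10.9 to 15.8 CPM in SA tumors and 11.2 to 13.1 CPM in WT penises. Most of these sums was Pmel, at 12.8 ± 2.60 and 10.8 ± 1.27 CPM (SD, n = 3 each). Tyr was at 0 in every library, and Dct, Mlana and Mc1r were low and overlapped between the groups. Tyrp1 measured 0.0137 ± 0.0173 CPM in SA tumors and 0.354 ± 0.0938 CPM in WT penises. The part of melanocytes in the level of Kit was not tested. Ms4a2, the beta chain of the IgE receptor, measured 1.93, 1.85 and 3.26 CPM in the SA tumors and 1.04, 0.300 and 0.775 CPM in the WT penises. It was the one member whose lowest SA value was not SA tumor 1. Ms4a2 rose, with a log2 fold change of 1.79 ± 0.46 (standard error, edgeR adjusted p = 0.0106). Fcer1a, the alpha chain that binds IgE, measured 0.706, 2.18 and 3.72 CPM in the SA tumors and 0.633, 0.701 and 0.456 CPM in the WT penises. SA tumor 1 exceeded the highest WT penis by a margin of less than the spread among them. Fcer1a rose, with a log2 fold change of 1.91 ± 0.57 (standard error, edgeR adjusted p = 0.0213), and its call was lost when any library but SA tumor 1 was left out (adjusted p between 0.0504 and 0.0769, with a log2 fold change of 1.27 without SA tumor 3). The IgE receptor genes are also used by basophils, whose summed markers were 0.927 to 2.11 CPM in SA tumors and 0.200 to 0.497 CPM in WT penises. Of these markers Mcpt8, which defines basophils in mice, had 1, 1 and 39 counts in SA tumors 1 to 3, the last being the deepest library. WT penises 1 to 3 had 0, 0 and 1. Scaled for depth, Mcpt8 measured 0.0372, 0.0331 and 0.317 CPM in the SA tumors and 0, 0 and 0.0456 CPM in the WT penises. Its groups thus overlapped, and it was not among the genes tested. The part of basophils in the result was not tested.

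Hdc, which encodes histidine decarboxylase, the enzyme that makes histamine, changed most among the 9 genes. It measured 14.1, 21.9 and 51.9 CPM in the SA tumors and 1.49, 1.20 and 0.957 CPM in the WT penises. Every SA tumor was far above the WT range, with SA tumor 3 the highest. The log2 fold change of Hdc was 4.60 ± 0.57 (standard error, 24.2-fold, edgeR adjusted p = 0.000595), and it lay between 3.88 (without SA tumor 3) and 4.92 (without SA tumor 1) when 1 library was left out. Hdc is also used by neutrophils and other myeloid cells. The summed neutrophil markers were 1427 to 2490 CPM in SA tumors and 56.6 to 120 CPM in WT penises. Most of each sum came from S100a8 and S100a9, so that it says little about the other markers and does not measure neutrophil content. For SA tumors 1 to 3, S100a8 gave 734, 582 and 1034 CPM, and S100a9 gave 976, 803 and 1368 CPM. All 6 markers that were measured rose past both thresholds, where 9.41% of all genes tested did. The sums were 1739, 1427 and 2490 CPM in SA tumors 1 to 3, so that SA tumor 2 was the lowest, as it was for S100a8 and S100a9, the most abundant of these markers. SA tumor 1 was the lowest SA tumor in Hdc, and also in the other neutrophil markers measured, Csf3r, Cxcr2, Retnlg and Mmp8. In SA tumors 1 to 3, Csf3r, the receptor for the granulocyte growth factor G-CSF, measured 19.1, 28.4 and 63.4 CPM. Cxcr2 measured 8.14, 9.60 and 18.2 CPM, Retnlg 1.04, 2.88 and 4.88 CPM, and Mmp8 0.780, 0.861 and 1.97 CPM. The part of neutrophils in the level of Hdc was not tested.

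**Figure D1:**
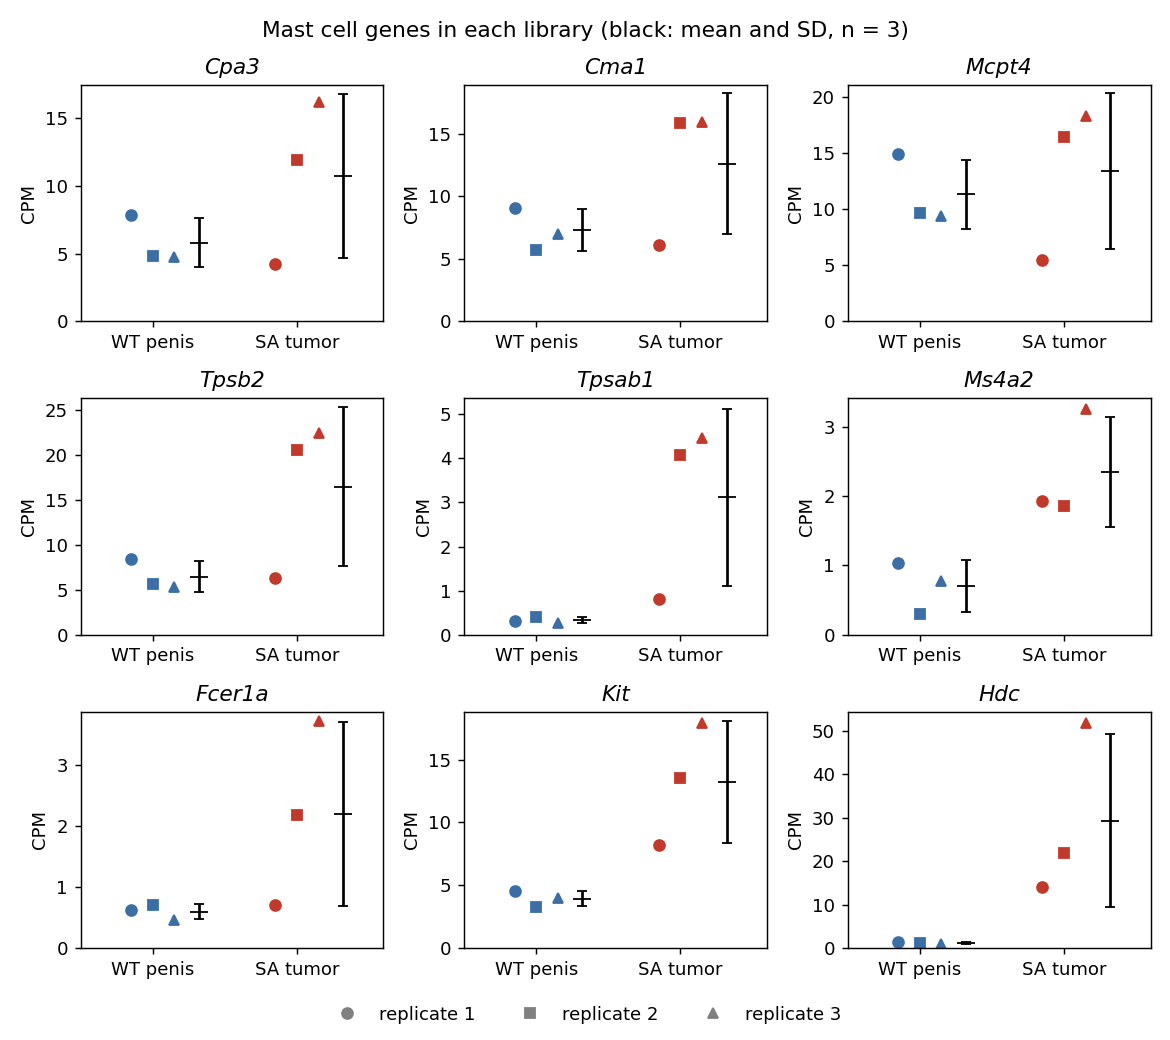
TMM-normalized CPM (linear axis from 0) of each of the 9 mast cell genes in 3 WT penises (blue) and 3 SA tumors (red), with the replicate as marker shape and the mean and SD in black. SA tumors 2 and 3 lie above every WT penis for all 9 genes, and SA tumor 1 falls below the highest WT penis for 4 of them (Cpa3, Cma1, Mcpt4 and Tpsb2).

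The SA tumors differed among themselves in the same way for most of these genes. SA tumor 1 was the lowest SA tumor for 8 of the 9 genes and SA tumor 3 the highest for 9. Both SA tumors 2 and 3 exceeded every WT penis for all 9 genes, while SA tumor 1 was below the highest WT penis for 4. The shares of all genes with these orders were not counted. The groups did not overlap for 5 genes, where 32.7% of all genes tested had every SA tumor above every WT penis. Without SA tumor 1, all 9 genes passed an adjusted p under 0.05, as did 8146 of all 16644 genes tested in that fit, in either direction. Mcpt4 then had a log2 fold change of 0.62 (edgeR adjusted p = 0.0431) and Cpa3 1.27 (adjusted p = 0.00369). That fit leaves out the tumor that was low for these same genes. With any 1 other library left out, 4 of the 9 passed. General leukocyte markers took the same order, with sums of 119, 216 and 347 CPM in SA tumors 1 to 3 and 76.9 to 119 CPM in WT penises. Fibroblast markers were 1285, 3705 and 4763 CPM in those tumors beside 6073 to 6355 CPM in WT penises. Sums of endothelium (146, 155 and 228 CPM), smooth muscle (34.9, 95.7 and 120 CPM) and Schwann cells (36.4, 45.2 and 53.5 CPM) also took this order. Those of squamous epithelium, neutrophils, basophils, melanocytes, adipocytes and skeletal muscle did not. The adipocyte sum was nearly all Fabp4 (122, 132 and 125 CPM in SA tumors 1 to 3). Adipoq, Plin1 and Cidec were at 0.0668 CPM or less in every library, so this sum says little about adipocytes. The part of the tissue make-up in the low level of SA tumor 1 was not tested.

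**Figure D2:**
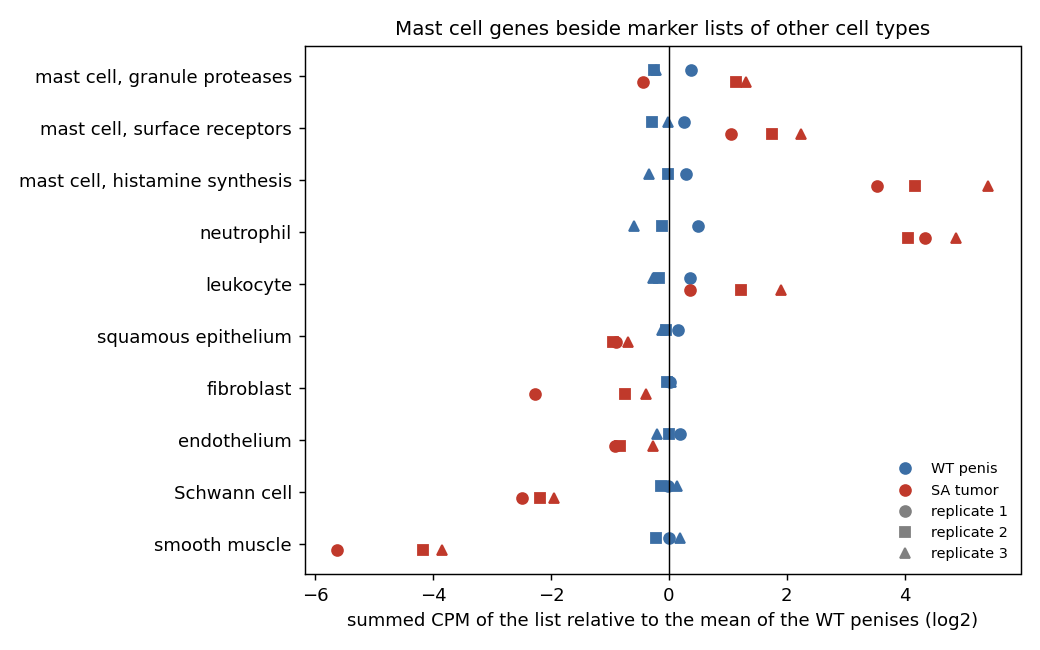
Summed CPM of the mast cell genes by role and of marker lists of other cell types, as the log2 ratio to the mean of the 3 WT penises, for each library (blue WT, red SA, shape for replicate). Neutrophil sums, which are mostly S100a8 and S100a9, and Hdc are higher in every SA tumor. Smooth muscle and Schwann cell sums are lower in every SA tumor. SA tumor 1 is lowest among the SA tumors for every list shown except neutrophils and squamous epithelium.

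Each gene was also set against Cpa3 within its own library, a measure that does not depend on the scaling of the libraries. Relative to the count of Cpa3, 5 of 8 members were higher in every SA tumor than in every WT penis, 1 was lower and 2 overlapped, where 9.79% of the other genes tested were higher and 16.2% lower by the same measure. The mean log2 ratio of Mcpt4 to Cpa3 was 0.35 ± 0.15 in the SA tumors, against 0.97 ± 0.04 in WT penis (SD, n = 3 each, exact two-sided permutation p = 0.10, the smallest that 3 against 3 allows). The ratio of Cma1 to Cpa3 was 0.31 ± 0.29 in SA tumors and 0.34 ± 0.20 in WT penises, with overlapping groups (exact permutation p = 0.90). In contrast the ratio of Hdc to Cpa3 was 1.44 ± 0.48 in SA tumors and -2.24 ± 0.20 in WT penises, without overlap (exact permutation p = 0.10). The ratios of Tpsab1, Kit, Fcer1a and Tpsb2 were also higher in all SA tumors, by 2.20, 0.97, 0.89 and 0.46 on the log2 scale, each with an exact permutation p of 0.10. After Benjamini-Hochberg adjustment over the 8 ratios the lowest p was 0.133, so this design cannot call any of them.

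**Figure D3:**
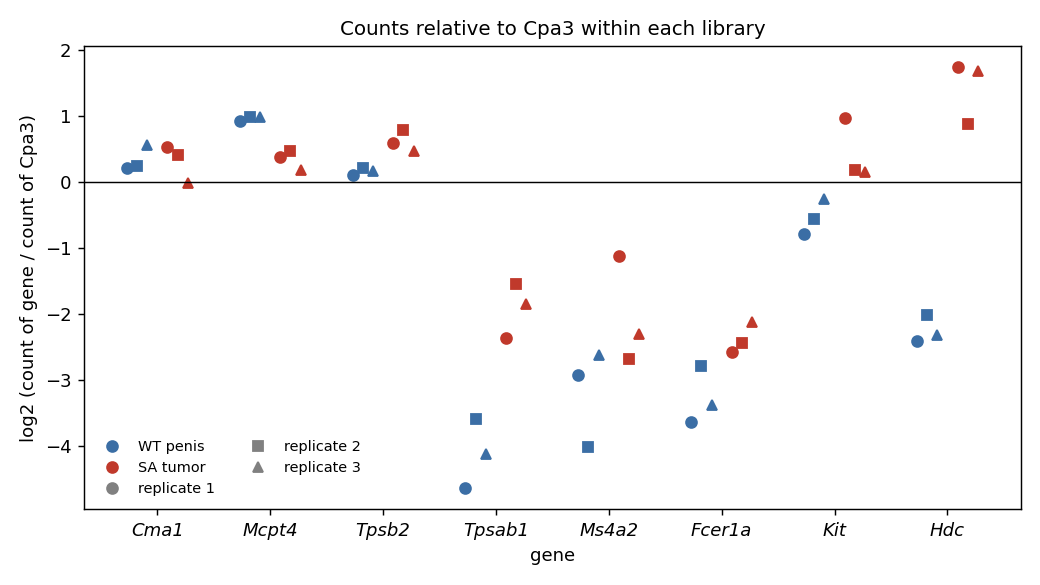
Log2 ratio of the count of each mast cell gene to that of Cpa3 in the same library, for 3 WT penises (blue) and 3 SA tumors (red), with the replicate as marker shape. Cma1 keeps overlapping ratios, Mcpt4 is lower in each SA tumor, and Tpsab1 and Hdc are higher in each SA tumor.

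Levels between genes were compared per transcript length, as FPKM (fragments per kilobase of transcript and per 1000000 counted). In WT penis the order was Mcpt4, Cma1, Tpsb2, Cpa3, Kit, Fcer1a, Hdc, Tpsab1 and Ms4a2, from 7.07 ± 1.84 FPKM for Mcpt4 to 0.158 ± 0.0826 FPKM for Ms4a2 (SD, n = 3). The neighbours Cma1 and Tpsb2, Fcer1a and Hdc, and Tpsab1 and Ms4a2 differed by less than the larger SD of the pair. This SD is between libraries and ignores that both genes were measured in the same ones. Within libraries, Cma1 exceeded Tpsb2 in 3 of 3 WT penises, Fcer1a exceeded Hdc in 2 and Tpsab1 exceeded Ms4a2 in 1. Kit exceeded Fcer1a by more than the larger SD, but in 2 of 3 WT penises. In SA tumors the order was Tpsb2, Mcpt4, Hdc, Cma1, Cpa3, Tpsab1, Kit, Fcer1a and Ms4a2, from 11.3 ± 6.10 to 0.637 ± 0.219 FPKM. Only Cpa3 and Tpsab1 differed by more than the larger SD among these neighbours. Within libraries, Tpsb2 exceeded Mcpt4, Cma1 exceeded Cpa3 and Cpa3 exceeded Tpsab1 in 3 of 3 SA tumors. The other neighbours kept their order in 1 or 2 of 3. By mean level, Hdc took place 7 of 9 in the WT penises (0.314 ± 0.0653 FPKM) and place 3 in the SA tumors (9.13 ± 6.28 FPKM). Within single libraries it took places 1, 4 and 1 in SA tumors 1 to 3, and 6, 7 and 7 in WT penises 1 to 3.

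Genes outside the 9 whose pattern over the 6 libraries was most like that of Cpa3 were Ctla2b, Tyrobp, Clec4a2, Abcd2 and Hmha1, with root mean square differences of 0.0974 to 0.161 in centred log2 CPM among the 14950 tested genes that averaged 1 CPM or more. Tyrobp is an adaptor of myeloid and NK cell receptors, and Clec4a2 is a C-type lectin of myeloid cells. Of the mast cell genes, Cma1 took place 13 in this order, Tpsb2 place 31 and Mcpt4 place 86. Fcer1a and Kit followed at places 389 and 684, and Ms4a2, Tpsab1 and Hdc at 7908, 12436 and 14203. Of the 8 genes, Cma1 ran closest to Cpa3 and Hdc farthest. This measure counts the size of the changes between libraries as well as their order. A late place therefore need not mean another order of the libraries.

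Among 22 other mast cell genes, 18 passed the filter on low counts, of which 9 rose, 2 fell and 7 did not pass at an adjusted p under 0.05 (of all genes, 28.2% rose and 25.2% fell). Their median log2 fold change was 1.02. Past both thresholds, 6 rose, namely Mcpt1, Mcpt2, Il1rl1, Adora3, Hpgds and Tph1, and 1 fell. With 1 library left out, 4 to 7 rose past both. Tph1 passed both in 2 of those 6 fits, and Adora3 missed them without WT penis 2 (edgeR adjusted p = 0.0364). Il1rl1, the receptor of interleukin 33 and also used by other immune cells, rose from 0.405 ± 0.132 to 25.7 ± 3.16 CPM (SD, n = 3 each), and its log2 fold change of 5.95 was 4.75 when the counts of its transcript rows were summed. Hpgds, the hematopoietic prostaglandin D synthase, rose from 3.53 ± 0.382 to 18.8 ± 2.29 CPM, and Tph1, an enzyme of serotonin synthesis, from 0.444 ± 0.133 to 4.03 ± 2.53 CPM. The serotonin transporter Slc6a4 fell from 37.5 ± 1.32 to 5.10 ± 2.06 CPM, and Gata2, a transcription factor of mast cells and other blood lineages, from 16.1 ± 2.94 to 7.85 ± 2.59 CPM. In WT penis the mean of each exceeded that of Mcpt4 (11.3 ± 3.11 CPM, SD, n = 3), the highest of the 9 genes there. The part of mast cells in the levels of Hpgds, Slc6a4 and Gata2 was not tested. Mrgprb2, a receptor of connective tissue mast cells, measured 0.334, 0.530 and 1.40 CPM in the SA tumors and 0.362, 0.467 and 0.364 CPM in the WT penises (log2 fold change 1.02 ± 0.56, standard error, edgeR adjusted p = 0.152).

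**Figure D4:**
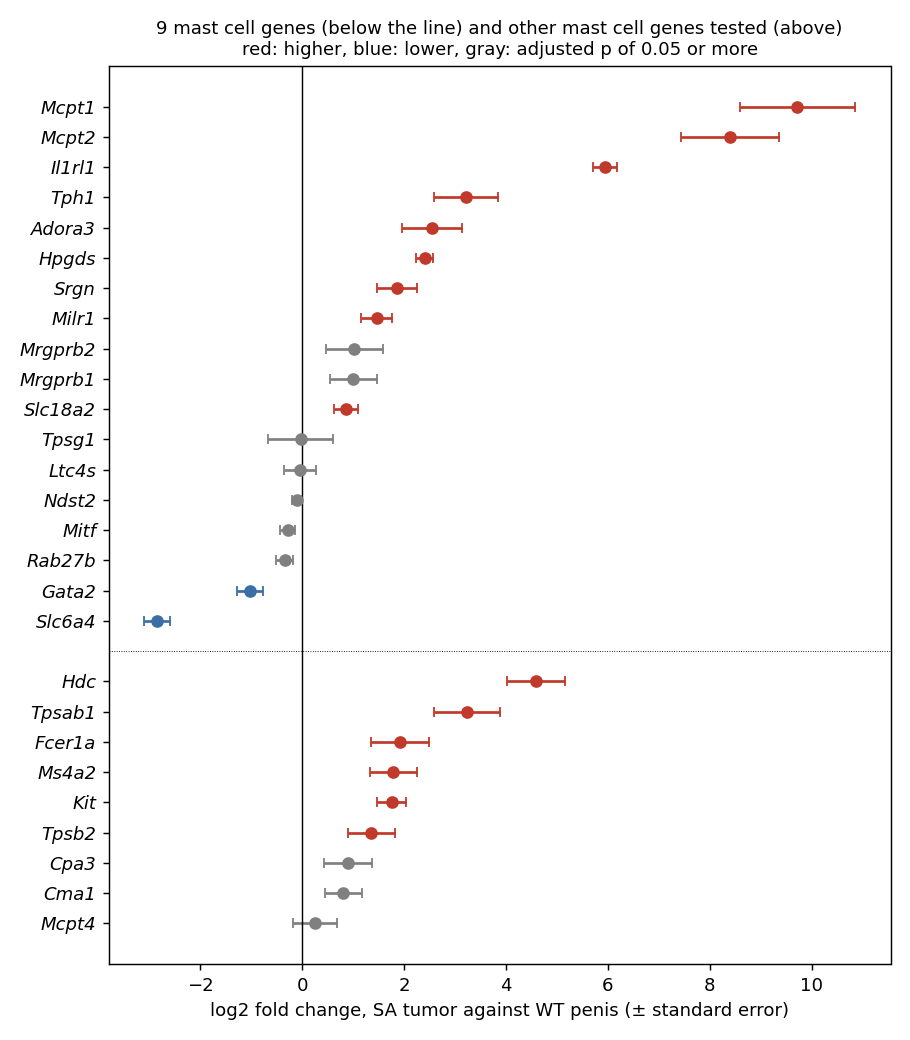
Log2 fold change of SA tumor against WT penis with its standard error (edgeR, n = 3 each) for the 9 mast cell genes (below the dotted line) and 18 other mast cell genes (above), in red where higher, blue where lower and gray where the adjusted p was 0.05 or more. Mcpt1 and Mcpt2 lie farthest to the right, and Cpa3, Cma1 and Mcpt4 are the 3 of the 9 in gray.

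The chymases that mark mucosal mast cells were close to 0 in WT penis and abundant in the tumors. Mcpt1 measured 9.96, 50.3 and 49.7 CPM in the SA tumors and 0.0904, 0.0334 and 0 CPM in the WT penises, where the 3 libraries together held 3 counts. The ratio of the SA mean to the pooled WT level was 904 (95% Poisson interval of the WT counts 309 to 4385, for counting error only). Mcpt2 measured 7.99, 32.6 and 31.2 CPM in the SA tumors and 0.0452, 0 and 0.182 CPM in the WT penises, with 5 counts in all. Its ratio was 354 (95% Poisson interval 152 to 1091). Both rose in edgeR's test (adjusted p = 0.000624 and 0.000450). The fitted log2 fold change of Mcpt1 moved from 9.72 to 10.7 without WT penis 1, and that of Mcpt2 from 8.40 to 7.68 without WT penis 2 and 10.1 without WT penis 3. For both, every SA tumor was above the WT range, and SA tumor 1 was the lowest SA tumor, as for Cma1 and Mcpt4. Transcripts of Mcpt1 and Mcpt2 shared no window of 76 bases, the read length, with those of Mcpt4 or Cma1. Across the chymase locus on chromosome 14, which holds these genes, cathepsin G and granzymes, 5 of 15 genes passed the filter on low counts. Of these, Mcpt1 and Mcpt2 rose at an adjusted p under 0.05, where 28.2% of all genes tested rose, while Cma1, Mcpt4 and Gzmb did not pass.

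The make-up of chymase and tryptase RNA differed between the groups. Of the summed FPKM of Mcpt4, Cma1, Mcpt1, Mcpt2, Tpsb2 and Tpsab1, Mcpt4 made up 46.5% ± 1.62 in WT penis and 13.7% ± 1.71 in SA tumors (SD, n = 3 each). The share of Cma1 was 27.7% ± 2.49 in WT penis and 12.5% ± 2.97 in SA tumors. The shares of Mcpt1 and Mcpt2 were 32.7% ± 4.78 and 23.7% ± 0.879 in SA tumors, and 0.145% ± 0.139 and 0.342% ± 0.471 in WT penis. Tpsb2 held 24.2% ± 1.11 in WT penis and 15.1% ± 1.19 in SA tumors. The shares of a library form a whole, so a lower share is not a lower level. Mcpt4 averaged 7.07 ± 1.84 FPKM in WT penis and 10.1 ± 5.25 FPKM in SA tumors, and Cma1 4.18 ± 0.922 and 8.76 ± 3.93 FPKM. SA tumor 1, low in most of these genes, had Mcpt1 and Mcpt2 shares of 27.2% and 23.1%, near those of the other SA tumors. These shares were chosen for display after the values had been seen and carry no test.

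**Figure D5:**
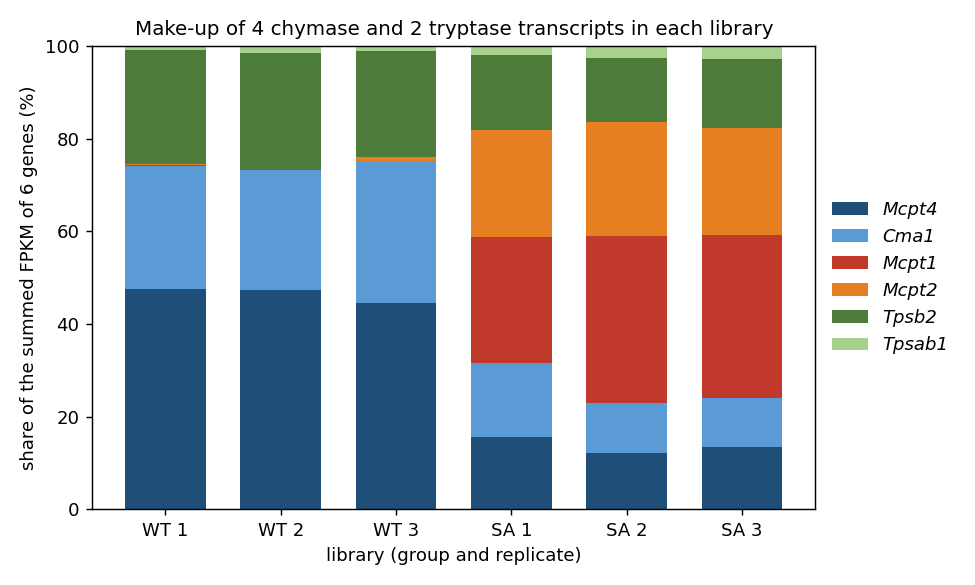
Share of the summed FPKM of 4 chymases (Mcpt4, Cma1, Mcpt1, Mcpt2) and 2 tryptases (Tpsb2, Tpsab1) in each of the 6 libraries, as stacked bars from 0 to 100%. Mcpt1 and Mcpt2 are hardly visible in the WT penises and take over 50% in each SA tumor.

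Windows of 250 bases were read for 7 of the 9 genes and for Mcpt1, each up to 1 start site from RefSeq. It was the only start given for each gene except Kit, for which the first of 2 was used and the other was not read. That start lies inside the gene span given above for Cpa3, Ms4a2, Fcer1a and Hdc, so that 28, 71, 3 and all 250 bases of their windows fall within the annotated gene. The windows of Cpa3 and Mcpt4, whose groups overlapped, of Mcpt1, a neighbour of Mcpt4, and of Hdc, which changed most of the 9, are shown because their RNA differed so unequally between the groups. Sequences are from RefSeq on GRCm38.p6, 5′ to 3′ on the strand of the gene, and capitals mark the letters AGATAA or TGATAA (either strand), to which GATA factors such as Gata2 are known to bind. The windows are chr3:20242182-20242431 (minus strand) for Cpa3, chr14:56062311-56062560 (minus) for Mcpt4, chr14:56017714-56017963 (plus) for Mcpt1 and chr2:126618679-126618928 (minus) for Hdc.
Cpa3: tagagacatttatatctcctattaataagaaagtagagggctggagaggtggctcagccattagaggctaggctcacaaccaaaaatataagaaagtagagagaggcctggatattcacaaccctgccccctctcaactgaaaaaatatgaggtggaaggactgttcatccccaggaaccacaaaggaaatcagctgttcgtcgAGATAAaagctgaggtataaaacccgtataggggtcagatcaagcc
Mcpt4: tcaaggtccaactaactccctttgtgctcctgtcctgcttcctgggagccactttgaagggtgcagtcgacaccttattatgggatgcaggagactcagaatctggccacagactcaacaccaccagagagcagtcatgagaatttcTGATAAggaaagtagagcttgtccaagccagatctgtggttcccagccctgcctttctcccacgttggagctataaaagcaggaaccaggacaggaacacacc
Mcpt1: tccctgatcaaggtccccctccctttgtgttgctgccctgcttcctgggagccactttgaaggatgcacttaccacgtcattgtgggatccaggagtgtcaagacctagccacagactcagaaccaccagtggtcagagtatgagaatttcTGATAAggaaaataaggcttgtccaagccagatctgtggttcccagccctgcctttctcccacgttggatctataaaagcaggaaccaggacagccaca
Hdc: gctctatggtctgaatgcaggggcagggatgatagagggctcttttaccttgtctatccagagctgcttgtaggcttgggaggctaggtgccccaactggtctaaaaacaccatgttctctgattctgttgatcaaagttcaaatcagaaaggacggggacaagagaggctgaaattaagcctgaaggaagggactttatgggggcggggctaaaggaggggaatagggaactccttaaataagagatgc

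The windows of Mcpt4 and Mcpt1 were alike, with 207 identical bases in 254 columns of a global alignment (81.5%), whereas that of Cma1 matched Mcpt4 in 48.4% of columns. Both hold TGATAA, starting 103 bases before the start of Mcpt4 and 99 before that of Mcpt1, and Mcpt4 measured 5.50 to 18.3 CPM across all 6 libraries while Mcpt1 spanned 0 to 50.3 CPM. The letters AGATAA or TGATAA stood in 4 of the 7 windows of the 9 genes (Cpa3, Mcpt4, Ms4a2 and Fcer1a), and in 17.0% of 27025 mouse promoter windows of the same length (AGATAA 10.3%, TGATAA 8.16%). Ms4a2 had AGATAA 3 times, at 224, 37 and 11 bases before the start used, of which the nearer ones fall inside the annotated gene span, and Kit, Cma1 and Hdc had neither. The E-box letters CACGTG or CATGTG, which Mitf is known to bind, stood in 1 of the 7 windows, that of Fcer1a, and in 17.6% of all windows. A match describes these letters and is not a bound site.

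Genes that act around mast cells changed in part. The growth factor Kitl measured 170, 125 and 106 CPM in the SA tumors and 14.6, 16.6 and 21.3 CPM in the WT penises. The groups were far apart (log2 fold change 2.93 ± 0.21, standard error, edgeR adjusted p = 1.55e-05), and SA tumor 1, lowest in Kit among the SA tumors, was the highest in Kitl. The alarmin Il33 measured 16.4 ± 6.62 CPM in SA tumors and 26.2 ± 0.544 CPM in WT penis (SD, n = 3 each, edgeR adjusted p = 0.0528).

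Downstream of the IgE receptor, 8 of 14 signalling genes rose and 1 fell at an adjusted p under 0.05, with a median log2 fold change of 0.88, where 28.2% of all genes rose and 25.2% fell. Syk, the kinase recruited by the receptor, and Lcp2, an adaptor, passed both thresholds with log2 fold changes of 2.13 and 2.28, and Prkcd fell by 0.44 on the log2 scale. The signalling chain Fcer1g, shared with other Fc receptors, measured 14.2 ± 6.16 CPM in SA tumors and 9.02 ± 2.21 CPM in WT penis (SD, n = 3 each). Its groups overlapped as those of Cpa3 did (edgeR adjusted p = 0.128), unlike those of its partners Ms4a2 and Fcer1a. Most genes of this list are used by many leukocytes and some by epithelium.

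Of 10 genes that break down or transport histamine or receive mast cell mediators, 9 passed the filter on low counts, and 3 rose and 3 fell at an adjusted p under 0.05, shares near those of all genes (28.2% and 25.2%). Aoc1, the diamine oxidase that degrades histamine outside cells, rose from 0.0415 ± 0.0461 to 26.6 ± 5.87 CPM (SD, n = 3 each), with 3 counts over the WT libraries. Hnmt, which inactivates histamine inside cells, fell from 2.31 ± 0.405 to 0.877 ± 0.521 CPM (edgeR adjusted p = 0.0274). The histamine receptor Hrh3 rose from 0.0524 ± 0.0469 to 14.9 ± 3.68 CPM, whereas Hrh1 and Hrh2 did not pass (log2 fold changes 0.45 ± 0.39 and 0.66 ± 0.41, standard error, edgeR adjusted p = 0.370 and 0.204). The tryptase-activated receptor F2rl1 fell from 51.2 ± 0.184 to 23.6 ± 6.12 CPM.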

How the data were processed

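Libraries of 3 SA tumors and 3 WT penises were sequenced as 76-base read pairs. The methods name TopHat for alignment (mm10) and HTSeq for counting. The deposited counts are raw and given per RefSeq transcript, with FPKM and TPM values that the authors deposited beside them. FPKM served only to compare levels between genes, and the deposited TPM were not used. Each gene was represented by its transcript with the highest mean count.

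Groups were compared by edgeR 4.0.16 (R 4.3.3, filterByExpr with a minimum of 10 counts, which left 16336 genes, TMM normalization, robust quasi-likelihood F-test, Benjamini-Hochberg adjustment). The smallest level shown by 3 counts was 0.0244 to 0.137 CPM, for counting error only. The samples come from separate mice. Ratios to Cpa3 were compared by exact permutation with SciPy 1.17.1. The script was tested on simulated counts. Genes are named as members, as genes of the lists of mast cell, signalling, mediator and cell type genes, or as the 5 genes most like Cpa3. The members and lists were chosen with earlier results of these data known. DESeq2 1.42.0, limma 3.58.1 (voom), other scalings, no filter, summed transcript rows, a replicate block and leaving out each library were alternatives.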

Additional observations from a re-analysis of the deposited data

How the results depend on the processing

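All 9 mast cell genes kept the direction of their log2 fold change under DESeq2, voom, 3 other scalings, no filter, summed transcript rows and the replicate block. Scaling by library totals only moved the median of all genes from 0.03 to 0.31 and gave 4 mast cell genes past both thresholds in place of 2. Leaving out 1 library gave 1 to 3 past both thresholds and 4 to 9 at an adjusted p under 0.05, and the median log2 fold change of the 9 genes lay between 1.27 and 1.92. Mcpt4 ran from -0.035 (without SA tumor 3) to 0.62 when 1 library was left out, and the difference in the log2 ratio of Cma1 to Cpa3 from -0.14 to 0.13. Tpsg1 turned to 0.036 and 0.26 and Ltc4s to 0.025 and 0.25 under upper quartile scaling and library totals, and with 1 library left out they ran from -0.23 to 0.32 and from -0.24 to 0.18. Mitf turned to 0.0054 and Ndst2 to 0.18 under library totals. None of these 6 values passed the test as reported, and the cause was not tested.

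Replicate numbers were not treated as pairs, since residuals of equal numbers correlated by -0.10 on average. With the replicate block, 2 mast cell genes passed both thresholds and 5 passed an adjusted p under 0.05, with a median of 1.68, and Tpsb2 no longer passed (adjusted p = 0.149). Tpsb2 also missed the threshold under voom (0.0692) and without the filter (0.0740), and Fcer1a under voom (0.0540). Depth limits Ms4a2, Fcer1a and Tpsab1 most, with 6 to 23 counts in each WT library.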
